A study of Sus scrofa with 9 samples.

Results

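Porcine hatched blastocysts (HB) made by chromatin transfer (CT HB) were compared with hatched blastocysts made by parthenogenetic activation (PA HB). The comparison used the 3 arrays titled for CT HB and the 3 titled for PA HB, which are 6 of the 9 arrays, and all 7495 genes to which the probe annotation gave a symbol. The remaining 3 arrays held hatched blastocysts flushed from inseminated gilts at 5.5 days (IVV HB), and are given here as a further level beside each gene. Every array carried the amplified RNA of 1 pool of 5 embryos, labelled with Cy5, and a Cy3-labelled reference pool of in vivo oocytes and embryos up to day 11. A value is the log2 ratio of the embryo pool over that reference, so a difference of 1 between groups is a 2-fold change, and differences run as CT HB minus PA HB.

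Both kinds of embryo were activated with calcium ionomycin followed by 6-dimethylaminopurine and grown in the same modified NCSU-23 medium, so they share the activation and the culture that IVV HB lack. In chromatin transfer, a variant of somatic cell nuclear transfer, the chromatin of a donor cell is put into an oocyte whose own chromosomes were removed. A parthenote develops from an activated oocyte with no sperm, and both of its genome copies are maternal. Genes expressed only from the paternal copy are therefore silent in parthenotes in principle, whereas the donor genome of CT embryos holds a copy from each parent and must be reset from a somatic state. The type, the sex and the number of donor cell lines are not given in the sources used here. The labels state the collection of CT HB and PA HB as 7 hours after fertilization, which cannot be a hatched blastocyst, so the age of either group is not settled.

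Array numbers run in blocks, with CT HB and PA HB each on consecutive arrays, so array order and group cannot be told apart. The interquartile range of the log2 ratios was 0.58 to 0.66 on CT HB arrays and 0.85 to 1.03 on PA HB arrays, against 0.55 to 0.67 on IVV HB arrays. Correlation across probes was 0.839 to 0.887 within CT HB and 0.816 to 0.898 within PA HB, and 0.53 to 0.818 between the 2 groups. Array values had been normalized within and not between arrays, so the counts over all genes, and those of several lists, are also given after quantile and scale normalization. A set of 565 probes (2.36%) followed 1 common profile over the 9 arrays, with medians of 0.44, 1.18 and 0.08 in CT HB, 2.33, 3.5 and 3.56 in PA HB, and 0.41, 2.28 and 1.1 in IVV HB. The profile thus varied between IVV HB pools as well as between groups.

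CT HB and PA HB differed in many genes. With 0.05 as the limit of the adjusted p and 2-fold as the smallest change, 583 of 7495 genes (7.78%) passed, of which 221 (2.95%) were higher and 362 (4.83%) lower in CT HB (limma, two-sided, Benjamini-Hochberg over all genes). The 3 arrays of each group did not overlap in 574 of these 583 genes, which the thresholds on the same arrays largely fix (31.2% of all genes). The median size on the log2 scale was 1.19 for rises and 1.52 for falls, or 1.29 for falls without a common-profile probe, and 7 rises but 115 falls reached 4-fold. Rises made up 37.9% of the changes as deposited, 60.6% after quantile normalization (225 of 371), 26.0% after scale normalization (136 of 523) and 54.3% once the common-profile probes were left out (220 of 405). The balance of rises and falls therefore depended on the scaling, and 267 of the 583 genes passed in the same direction after quantile normalization and 332 after scale normalization. Without CT HB 3 the count was 326.

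**Figure D1:**
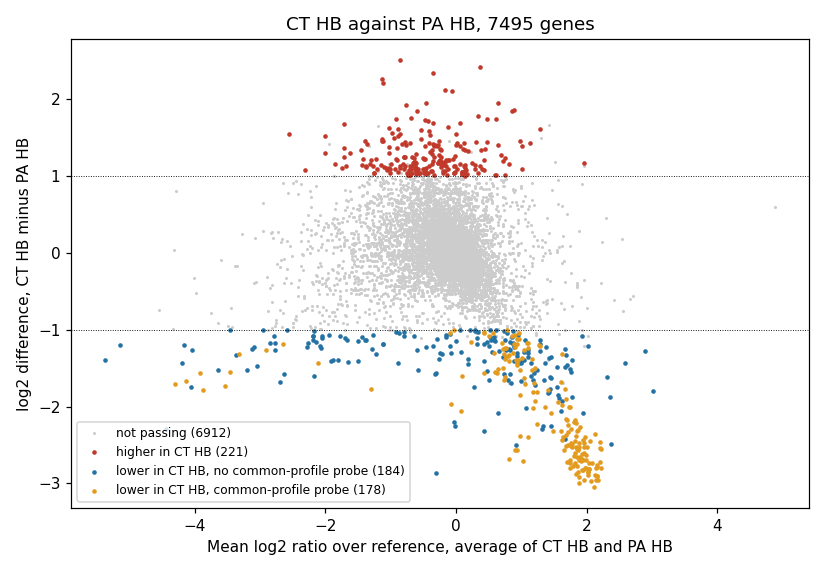
Each point is 1 of 7495 genes, with the average log2 ratio over the reference in CT HB and PA HB on the x axis and the log2 difference, CT HB minus PA HB, on the y axis; dotted lines mark 2-fold. The 221 rises lie mostly at lower average levels than the falls, and most of the 178 falls with a common-profile probe gather at high average levels.

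The genes with the largest rises belonged to several cell functions, with folding cofactors and mitochondrial fuel use among them. *CACYBP*, which binds the calcyclin S100A6 and acts as a co-chaperone, had 0.13, -0.2 and 0.04 in CT HB against -2.95, -2.55 and -1.17 in PA HB, and 1.52, 0.87 and 0.84 in IVV HB (difference 2.21, SE 0.38, limma, adjusted p = 0.0058). *VBP1*, a prefoldin subunit that hands unfolded actin and tubulin to the chaperonin, had 0.54, -0.9 and 0.36 in CT HB against -1.59, -2.94 and -2.26 in PA HB (difference 2.26, SE 0.41). In both folding cofactors every CT HB array lay above every PA HB array, and CT HB 2 and PA HB 1 were the nearest pair for *VBP1*.

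*OXCT1*, the mitochondrial enzyme that lets cells burn ketone bodies, had 0.99, 0.66 and 1.33 in CT HB against -0.05, -1.96 and -1.31 in PA HB, and 1.09, 0.85 and 0.92 in IVV HB (difference 2.10, SE 0.38). PA HB was the low group there, since the CT HB mean of 1.00 and the IVV HB mean of 0.95 were close. *NAMPT*, the rate-limiting enzyme of NAD salvage, had -0.2, -0.13 and 0.9 in CT HB against -1.36, -1.97 and -1.87 in PA HB (difference 1.92, SE 0.29). *GOLGA4*, a golgin that tethers vesicles (2.33, SE 0.41), *DYNLT3*, a dynein light chain (1.95, SE 0.28), and *MPZL2*, an epithelial adhesion protein (1.84, SE 0.35), rose too. *PPIC*, a cyclophilin that helps proteins fold in the secretory pathway, stood apart in its IVV HB level, with 2.22, 1.04 and 2.17 in CT HB, 0.54, -0.08 and -0.59 in PA HB, and -1.12, -1.23 and -0.94 in IVV HB. For *PPIC* both cultured groups lay above IVV HB and CT HB above both (CT HB minus PA HB 1.85, SE 0.33, adjusted p = 0.0066).

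The other 3 large rises passed with all arrays but not with 1 of several arrays left out, at differences of at least 1.46. *CTH*, which makes cysteine from cystathionine, had the largest rise of all, with 1.03, -0.28 and 0.42 in CT HB against -1.64, -2.29 and -2.39 in PA HB (difference 2.50, SE 0.54, adjusted p = 0.012). It did not pass without CT HB 1 (2.18, adjusted p = 0.055), without CT HB 3 (2.48, 0.053), or after quantile (0.051) or scale normalization (0.06). *LRPAP1*, a chaperone of lipoprotein receptors, differed by 2.11 (SE 0.51) and missed it without CT HB 2, CT HB 3 or PA HB 2 (1.94 to 2.1, adjusted p of at most 0.072) and after both scalings. *GLRX*, the glutaredoxin of the cytosol, differed by 1.94 (SE 0.49) and missed it without CT HB 1, CT HB 3, PA HB 2 or PA HB 3 (1.46 to 1.87, adjusted p of at most 0.1).

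**Figure D2:**
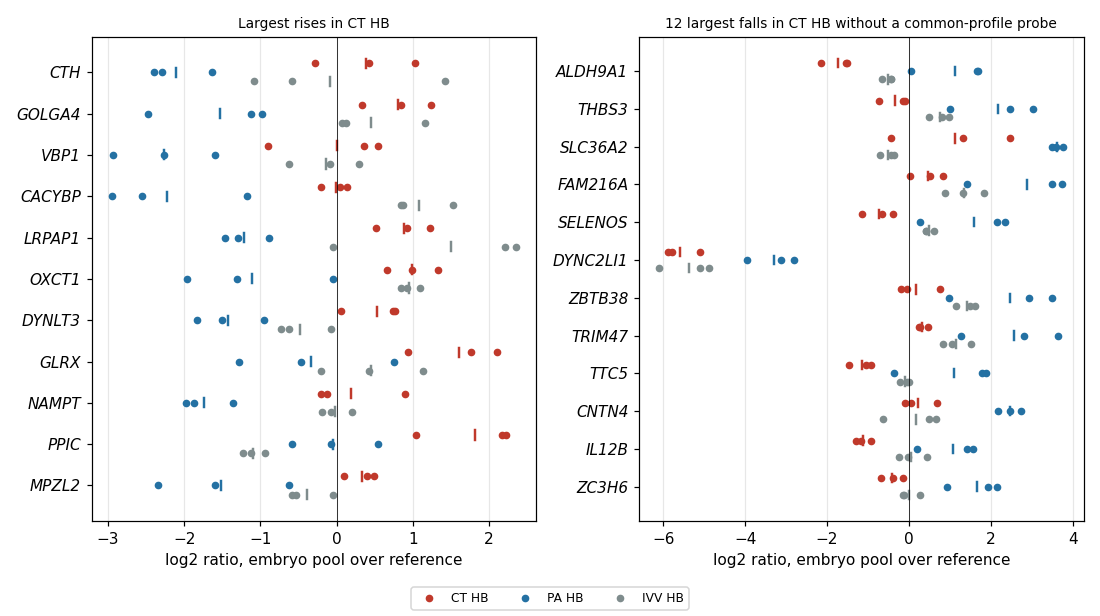
Log2 ratios over the reference of 11 of the 12 genes with the largest rises and of the 12 with the largest falls without a common-profile probe, 1 point per array and a bar at each group's mean (n = 3). The genes were chosen among those whose CT HB and PA HB arrays do not overlap. PA HB 1 is the PA HB array nearest CT HB in 11 of the 12 falls. The IVV HB mean lies nearer CT HB in 8 of the 11 rises and 9 of the 12 falls, against 4429 of the 6912 genes that did not pass.

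The falls split into genes with and without a probe of the common profile. Of the 362 genes lower in CT HB, 178 (49.2%) had such a probe and 184 had none, while 0 of the 221 rises had one. The profile was defined by a pattern that is higher in PA HB, so its direction is fixed by that choice and carries no information of its own. The 12 largest falls all had a profile probe. *IL12A*, a subunit of the cytokine interleukin 12, led with 0.48, 1.19 and 0.09 in CT HB against 2.79, 4.25 and 3.86 in PA HB, and 0.4, 2.48 and 1.08 in IVV HB (difference -3.04, SE 0.50). *LIPE* (hormone-sensitive lipase) had 0.42, 1.1 and 0.21 in CT HB against 2.86, 4.03 and 3.74 in PA HB, and 0.27, 2.58 and 1.19 in IVV HB (difference -2.97, SE 0.50). Profile genes run in parallel over the arrays because a high correlation with the mean pattern defined the profile. *VPS26B* (retromer sorting), *FAM174A*, the homeobox gene *PBX2*, *UBOX5*, *RAB6B*, *ASAP3*, *NEFH* (a neurofilament), the helicase *DDX42*, the Polycomb partner *ASXL1* and the potassium channel *KCNA3* fell by 2.88 to 2.99 on the log2 scale. *NEFH* and *DDX42* missed the threshold after quantile normalization (-1.69, adjusted p = 0.066, and -1.68, adjusted p = 0.056).

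**Figure D3:**
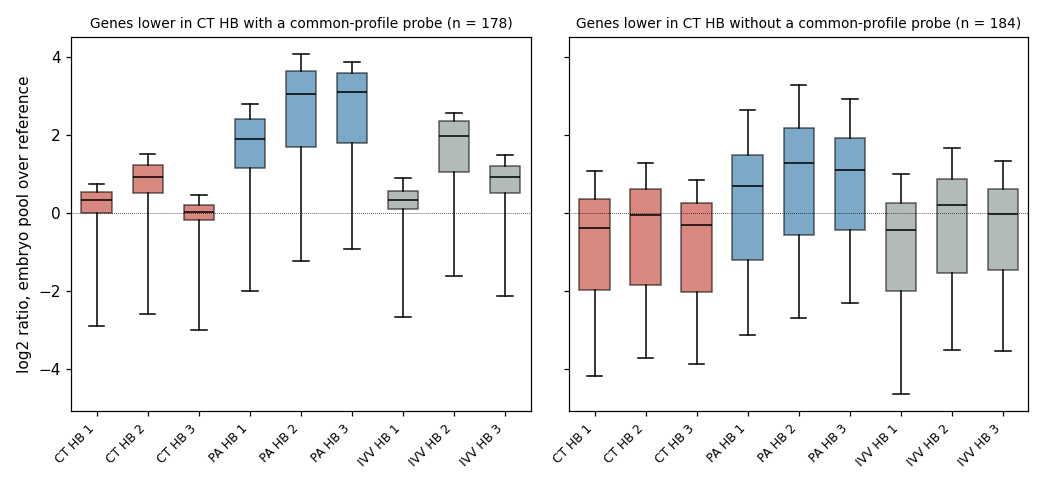
Log2 ratios over the reference on each array of the genes lower in CT HB, with a common-profile probe (left, n = 178) and without one (right, n = 184); boxes span the quartiles with the median, whiskers run from the 5th to the 95th percentile of genes. With the profile the array medians are 0.32, 0.92 and 0.03 in CT HB, 1.9, 3.06 and 3.09 in PA HB and 0.33, 1.98 and 0.92 in IVV HB, and without it -0.4, -0.05 and -0.31, 0.69, 1.28 and 1.1, and -0.44, 0.19 and -0.03.

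Among falls without a profile probe, *ALDH9A1*, an aldehyde dehydrogenase used in carnitine and polyamine metabolism, had the largest. It had -1.55, -1.51 and -2.15 in CT HB against 0.04, 1.68 and 1.65 in PA HB, and -0.66, -0.44 and -0.43 in IVV HB (difference -2.86, SE 0.37, adjusted p = 0.0048). IVV HB lay between the cultured groups. *CNTN4*, a contactin of the neural surface, had -0.09, 0.68 and 0.04 in CT HB against 2.17, 2.46 and 2.74 in PA HB, and -0.63, 0.66 and 0.48 in IVV HB (difference -2.25, SE 0.33), with CT HB and IVV HB overlapping. *DYNC2LI1*, a subunit of the dynein of cilia, was far below the reference in all groups, with -5.88, -5.1 and -5.8 in CT HB against -3.96, -3.13 and -2.81 in PA HB, and -6.1, -5.11 and -4.89 in IVV HB (difference -2.29, SE 0.36). *IL12B*, the partner subunit of *IL12A*, had -0.93, -1.17 and -1.29 in CT HB against 0.2, 1.42 and 1.57 in PA HB (difference -2.20, SE 0.32).

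The other falls of this kind were in genes of unrelated roles. *THBS3*, a thrombospondin, differed by -2.50 (SE 0.41), *SELENOS*, a selenoprotein of endoplasmic reticulum quality control, by -2.32 (SE 0.44), *TRIM47*, a ubiquitin ligase, by -2.25 (SE 0.45), and *ZC3H6*, a zinc finger gene, by -2.09 (SE 0.29). *SLC36A2*, a proton-coupled carrier of small amino acids, had -0.43, 2.48 and 1.32 in CT HB against 3.59, 3.77 and 3.49 in PA HB, and -0.7, -0.44 and -0.37 in IVV HB (difference -2.49, SE 0.52, adjusted p = 0.01). Its CT HB arrays spread over almost 3 log2 units, and after quantile (-1.05, adjusted p = 0.35) or scale normalization (-1.49, 0.12) it did not pass. *FAM216A* (-2.42), *ZBTB38* (-2.29) and *TTC5* (-2.25) missed the threshold without CT HB 3, at an adjusted p of 0.056, 0.069 and 0.054, and *ZBTB38* also without PA HB 2 (0.05) or PA HB 3 (0.051). *FAM216A* and *ZBTB38* missed it after quantile normalization as well (0.081 and 0.084). In 34 of the 184 falls without a profile probe, PA HB 1 lay at least 1 log2 unit below both other PA HB arrays, as it did in 70 of the 178 with one.

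Of 46 genes for cytosolic ribosomal proteins, 13 rose (28.3%, against 2.95% of all genes) and 1 fell, and 38 lay above 0, with a median difference of 0.80 against 0.00 over all genes. Array medians of the list were 0.42, 0.2 and 0.67 in CT HB against -0.12, -0.36 and -0.38 in PA HB, and 0.29, 0.22 and 0.03 in IVV HB, so that no PA HB array reached the others. *RPL10A* had 0.44, 0.18 and 0.8 in CT HB against -0.79, -1.16 and -0.99 in PA HB, and 0.15, 0.1 and 0.04 in IVV HB (difference 1.45, SE 0.19, adjusted p = 0.0048). *RPS21* had 1.02, 0.89 and 1.41 in CT HB against -0.11, -0.11 and -0.49 in PA HB (1.34, SE 0.19). *RPL14* (1.24, SE 0.17) and *RPL35A* (1.42, SE 0.20) moved by a like amount, in large subunit genes as in *RPS21* of the small subunit. The single fall was *RPL23A*, with 1.67, 2.46 and 2.21 in CT HB against 3.66, 4.14 and 3.95 in PA HB, which did not pass after quantile (-0.41, adjusted p = 0.51) or scale normalization (-0.59, 0.29). After those scalings 16 and 11 members rose. The count was 6 without CT HB 3, 8 without PA HB 2 and 20 without CT HB 2. Ribosomal protein genes have many processed pseudogenes with near-identical sequence, which a probe may not tell apart.

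**Figure D4:**
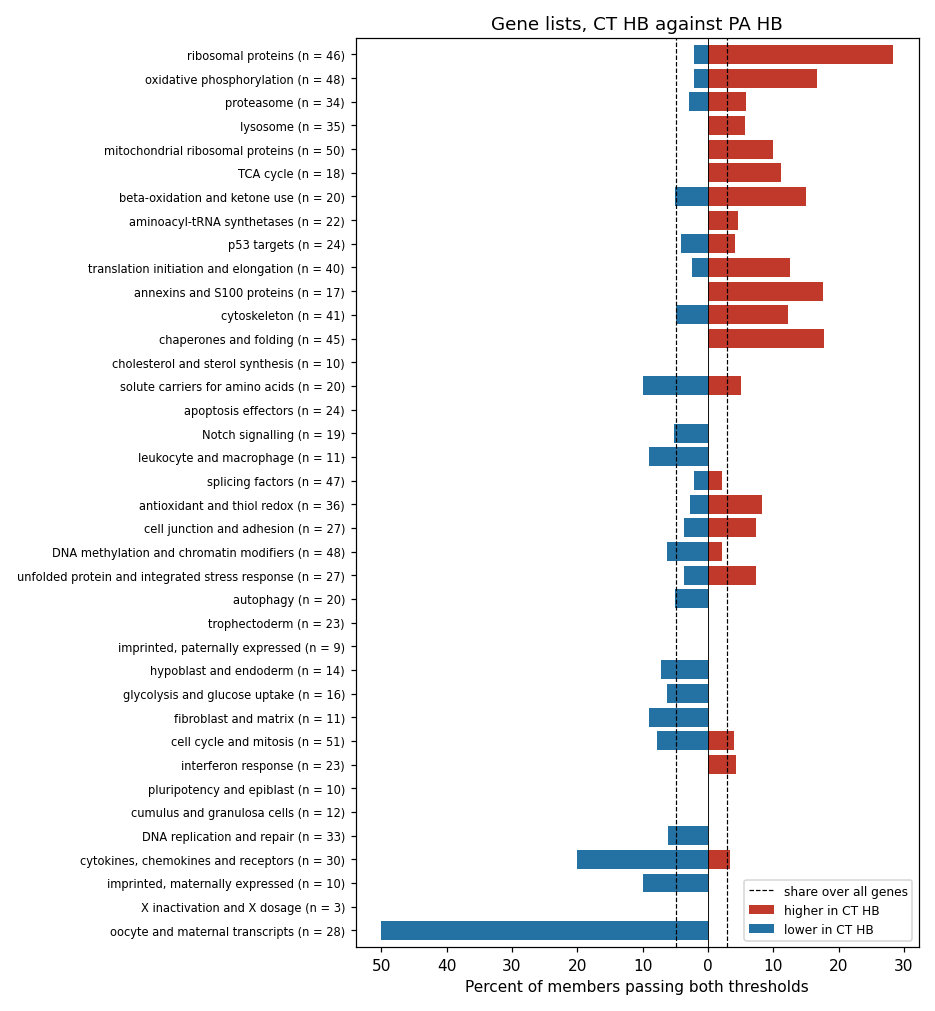
Percent of the measured members of each gene list (n in brackets) that passed both thresholds, higher in CT HB to the right and lower to the left, with lists ordered by their median difference and dashed lines at the shares over all genes (2.95% and 4.83%). With the values as deposited, ribosomal proteins (28.3% higher) and oocyte and maternal transcripts (50% lower) reach farthest on either side.

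Of 40 translation initiation and elongation factors 5 rose (12.5%, against 2.95% of all genes) and 1 fell, with a median of 0.18. *EIF2S1*, the alpha subunit of eIF2 that is phosphorylated under stress, had 0.06, -0.61 and -0.11 in CT HB against -1.68, -2.27 and -1.56 in PA HB, and 0.44, -0.02 and -0.07 in IVV HB (difference 1.62, SE 0.25, adjusted p = 0.0048). *EIF4A3*, a helicase of the exon junction complex, differed by 1.45 (SE 0.28), and by 0.84 after scale normalization, under 2-fold. *EIF3H* differed by 1.23 (SE 0.26) and did not pass without CT HB 3 (adjusted p = 0.057) or after scale normalization (0.052). *EEF1A1* had probes at 1.7 and 0.51, and its call (1.11, adjusted p = 0.038) was lost without any 1 of 6 arrays, namely the 3 CT HB arrays, PA HB 2, PA HB 3 and IVV HB 3 (adjusted p of up to 0.12), and after quantile (0.06) or scale normalization (0.052). The fall, the eEF2 kinase gene *EEF2K* (-2.53), has a profile probe and was lost without CT HB 3 (-2.26, adjusted p = 0.057) and after quantile (-1.27, 0.14) or scale normalization (-1.74, 0.057). The list had 2 rises without CT HB 3 or after scale normalization, 3 without PA HB 2 or PA HB 3, and 8 without CT HB 2.

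Of 50 mitochondrial ribosomal protein genes 5 rose (10%) and 0 fell, against 2.95% and 4.83% of all genes, with a median of 0.26. *MRPL39* had 0.18, 0.36 and 0.51 in CT HB against -0.62, -0.8 and -0.69 in PA HB, on 2 probes that differed by 1.01 and 1.1. *MRPL39* just missed 2-fold after quantile (0.99) or scale normalization (0.94) and without CT HB 3 (0.97). *MRPL1* passed as a mean of probes at 2.2 and 0.46. *MRPL51* (1.54) and *MRPL44* (1.01) missed the threshold without CT HB 1, CT HB 3 or PA HB 2, and *MRPL44* also without CT HB 2, at an adjusted p of at most 0.12. Both were lost after quantile (1.47 and 0.83) and scale normalization (1.09 and 0.66), and *MRPL44* in centred arrays (0.97) and in the 6 arrays alone (adjusted p = 0.059). The list count was 1 after scale normalization or without CT HB 3, 2 after quantile normalization or without CT HB 1, and 3 without PA HB 2. Of 22 aminoacyl-tRNA synthetases 1 rose (4.55%, against 2.95% of all genes) and 0 fell. The rise, *GARS* (1.45, SE 0.36), was lost without CT HB 2, CT HB 3, PA HB 2 or PA HB 3 (adjusted p of at most 0.099).

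Of 48 respiratory chain and ATP synthase genes 8 rose (16.7%, against 2.95% of all genes) and 1 fell. Differences lay above 0 in 40 of them, most of which did not pass, against 3739 of all 7495 genes, and the median was 0.47. *NDUFA9*, of complex I, had 0.56, -0.01 and 0.54 in CT HB against -0.87, -1.34 and -1.28 in PA HB, and 0.9, 0.21 and 0.35 in IVV HB (difference 1.53, SE 0.24, adjusted p = 0.0048), with 1 probe at 2.18 and the other at 0.88, which did not pass alone (adjusted p = 0.066). *NDUFA2* had 0.3, 0.1 and 0.67 in CT HB against -0.5, -1.05 and -0.98 in PA HB (1.20, SE 0.24). *ATP5G3*, of the proton channel of ATP synthase, had 0.22, -0.34 and 0.69 in CT HB against -1, -2.07 and -1.63 in PA HB (1.75, SE 0.36), and did not pass without CT HB 3 (1.5, adjusted p = 0.052) and after quantile normalization (0.054). *NDUFS4* (1.10) was under 2-fold without PA HB 2 (0.91). The fall, *ATP5E* (-1.18), came from 1 of its 2 probes, since the common-profile probe stood at -2.72 and the other at 0.36 (adjusted p = 0.38), and was lost without CT HB 3 (adjusted p = 0.052) or PA HB 3 (-0.98) and under both scalings. The count of rises was 3 without CT HB 3, 4 without PA HB 2 and 5 without CT HB 1.

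Of 20 genes of fatty acid oxidation and ketone use 3 rose (15%), *OXCT1* among them, and 1 fell (5%), against 2.95% and 4.83% of all genes. After either quantile or scale normalization 1 rose and 0 fell. *ACADM*, which oxidizes medium-chain fatty acids, had -0.81, 0.42 and 0.03 in CT HB against -1.11, -2.42 and -1.05 in PA HB (1.41, adjusted p = 0.027), and was lost without CT HB 2, CT HB 3 or PA HB 2 (adjusted p of at most 0.1), in the 6 arrays alone (0.052) and after quantile (0.058) or scale normalization (0.068). *ECHS1* (1.04) was lost without CT HB 1, CT HB 3, PA HB 2 or PA HB 3, in centred arrays, and after quantile (adjusted p = 0.057) or scale normalization (0.99). The fall, *ECHDC1*, a proofreading enzyme of fatty acid synthesis, had 2.04, 2.57 and 2.13 in CT HB against 3.6, 3.3 and 3.69 in PA HB and 0.03, 0.98 and 0.91 in IVV HB (difference -1.28, SE 0.26). After quantile normalization that difference was 0.19 (adjusted p = 0.8) and after scale normalization -0.17 (0.78). Of 18 TCA cycle genes 2 rose (11.1%, against 2.95% of all genes) and 0 fell. Both, *IDH3A* (1.03, also 0.99 in centred arrays) and *SUCLA2* (1.42, adjusted p = 0.047), missed the threshold under both scalings. They also missed it without CT HB 1, CT HB 3, PA HB 2 or PA HB 3, and *SUCLA2* without IVV HB 2 or IVV HB 3 (adjusted p of at most 0.17). Of 16 glycolysis genes 0 rose and 1 fell (6.25%), against 2.95% and 4.83% of all genes. The fall was *PFKM*, the muscle type of phosphofructokinase, with -0.24, 0.12 and 0.04 in CT HB against 0.67, 1.96 and 0.6 in PA HB. *PFKM* differed by -1.10 (adjusted p = 0.034) and by -0.66 without PA HB 2 (0.055), and was also lost without any 1 CT HB array or IVV HB 3 (0.052 to 0.12), in the 6 arrays alone (0.064), and after quantile (-0.78) or scale normalization (-0.81). Of 10 sterol synthesis genes 0 passed, against 7.78% of all genes.

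Of 45 chaperones and folding factors 8 rose (17.8%) and 0 fell, against 2.95% and 4.83% of all genes. The median was 0.15, and most members did not pass. Beside *VBP1* and *CACYBP* the rises included *PPIA*, cyclophilin A, with 0.53, 0.53 and 1 in CT HB against -0.42, -1.4 and -1.03 in PA HB, and 0.56, 0.65 and 0.29 in IVV HB (difference 1.63, SE 0.25, adjusted p = 0.0048). *PTGES3*, the HSP90 co-chaperone p23, had 0.61, 0.01 and 0.62 in CT HB against -0.66, -1.14 and -1.15 in PA HB, and 0.87, 0.54 and 0.68 in IVV HB (1.39, SE 0.22). In both genes CT HB and IVV HB overlapped, and PA HB lay below both. The remaining 4 rises were *HSPA8* and *HSPA9*, HSP70 chaperones of cytosol and mitochondria, and the chaperonin subunits *CCT2* and *CCT4*, named after their values were seen (1.05 to 1.67). The list had 6 rises and 0 falls after quantile normalization, and 4 rises and 2 falls after scale normalization. Of 27 genes of the unfolded protein and integrated stress responses 2 rose (7.41%, against 2.95% of all genes) and 1 fell (3.7%, against 4.83%). *CTH* and *SDF2L1* (1.15) rose and *CREB3L2* fell (-2.09). *SDF2L1* was lost without CT HB 1, CT HB 3, PA HB 2 or PA HB 3 (adjusted p of at most 0.094), and both were lost under each scaling, *CREB3L2* at -0.68 and -1.27.

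Of 34 proteasome genes 2 rose (5.88%, against 2.95% of all genes) and 1 fell (2.94%, against 4.83%), with a median of 0.35. The rises were *PSME4*, an activator (1.14, and 0.98 without CT HB 1), and *PSMD12*. The fall was *PSMD11*, which has a profile probe (-2.32, and -1.29 with an adjusted p of 0.063 after quantile normalization). *PSMD12* (1.12) was lost without CT HB 1, CT HB 3 or PA HB 3 and under both scalings. Of 35 lysosomal genes 2 rose (5.71%) and 0 fell, against 2.95% and 4.83% of all genes (median 0.33). The list had 9 rises after quantile and 5 after scale normalization. It had 5 without CT HB 2, 4 without PA HB 1, 3 without PA HB 3 and 1 without CT HB 3. *NPC2*, a carrier of cholesterol in lysosomes, had 2.36, 2.49 and 2.78 in CT HB against 1.52, 1.57 and 1.04 in PA HB, and 1.43, 1.67 and 1.53 in IVV HB (1.16, SE 0.19, and 1.00 without PA HB 3, just under 2-fold). Here PA HB and IVV HB shared 1 level and CT HB stood above both. *ATP6V1G1*, a proton pump subunit (1.30), was lost without CT HB 1 (adjusted p = 0.055) or CT HB 3 (0.065) and after scale normalization (0.18).

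*ANXA2*, a calcium-dependent membrane-binding protein, was another gene with CT HB above both other groups, with 0.69, 0.37 and 1.18 in CT HB against -0.37, -0.77 and -0.75 in PA HB, and -1.09, -0.75 and -1.01 in IVV HB (CT HB minus PA HB 1.38, SE 0.22, with 3 probes between 1.18 and 1.54). Of 17 annexin and S100 genes 3 rose (17.6%, against 2.95% of all genes), *ANXA2*, *ANXA5* (1.13) and *ANXA4* (1.15), and 0 fell (against 4.83%). After quantile normalization 5 rose, and without CT HB 3 only 1. *ANXA5* was lost without CT HB 3 (0.94) or PA HB 1 (1.00, just under 2-fold) and after scale normalization (0.59), and *ANXA4* without CT HB 1, CT HB 3, PA HB 2 or PA HB 3 (0.87 to 1.19, adjusted p of at most 0.12). Of 36 antioxidant genes 3 rose (8.33%, against 2.95% of all genes) and 1 fell (2.78%, against 4.83%). The rises were *GLRX*, *GLRX3* and the peroxiredoxin *PRDX1*, and the fall was the glutathione peroxidase *GPX1* (-1.16). *PRDX1* had -0.29, -0.66 and 0.37 in CT HB against -1.49, -2.16 and -1.62 in PA HB (1.56, SE 0.33) and did not pass without CT HB 3 (1.28, adjusted p = 0.059) and after scale normalization (0.064). *GLRX3* (1.12) was lost without CT HB 1, CT HB 3, PA HB 2 or PA HB 3, and *GPX1* without CT HB 1, CT HB 3, PA HB 1 or PA HB 3, both also under each scaling, and the list had 0 rises without CT HB 3, 5 after quantile and 4 after scale normalization.

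In normal development the mRNAs stored in the egg are degraded as the embryo switches on its own genome. Of 28 oocyte and maternal transcripts measured, 0 rose and 14 fell (50%, against 4.83% of all genes), and 27 lay below 0, with a median of -0.93. The array medians were -1.92, -1.86 and -2.07 in CT HB against -1.46, -0.85 and -1.02 in PA HB, and -2.03, -1.59 and -1.57 in IVV HB. The list thus lay below the oocyte-containing reference in every group, and least so in PA HB. *FIGLA*, an oocyte transcription factor that drives the zona pellucida genes, had -0.32, -0.41 and -0.8 in CT HB against 0.69, 0.94 and 0.98 in PA HB, and -1.07, -0.7 and -0.51 in IVV HB (difference -1.38, SE 0.20, adjusted p = 0.0048). *ZP2*, a zona pellucida protein, had -4.93, -4.47 and -4.9 in CT HB against -3.42, -2.79 and -2.73 in PA HB, and -4.45, -3.13 and -4.34 in IVV HB (-1.79, SE 0.33). *ACCSL* had -5.03, -4.99 and -4.76 in CT HB against -3.77, -3 and -2.75 in PA HB, and -5.38, -4.34 and -4.37 in IVV HB (-1.75, SE 0.31), and was under 2-fold after quantile normalization (-0.93).

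The remaining falls of that list were *ZP3* and *ZP4*, the oocyte growth factors *GDF9* and *BMP15*, the meiotic kinase *MOS*, *ZAR1* and *ZAR1L*, the maternal-effect genes *NLRP2* and *OOEP*, the deadenylase cofactor *BTG4*, and the importin *KPNA7*, by 1.13 to 1.71 on the log2 scale in size; all but *KPNA7* are named outside the rule, as the list's other members. Of the 14, 5 (*ZP2*, *ZP3*, *OOEP*, *BTG4* and *KPNA7*) had a common-profile probe. *KPNA7* fell on its profile probe (-2.01) and not on the other (-0.36, adjusted p = 0.2), and stood at -0.64 after quantile normalization. Without profile probes 9 of 24 fell and the median was -0.56. The count was 6 after quantile normalization and 18 after scale normalization, and 8 without CT HB 1, CT HB 3, PA HB 2 or PA HB 3. In pooled embryos, fewer cells with a transcript and less of it per cell cannot be told apart. Of 12 cumulus and granulosa genes, which would mark attached follicle cells, 0 passed both thresholds, against 7.78% of all genes, and 8 lay below 0. After quantile or scale normalization 1 of them fell. *INHA* stood at -1.01 (adjusted p = 0.055) and *FSHR* at -0.49 (0.061). Whether follicle cells were attached was not tested.

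**Figure D5:**
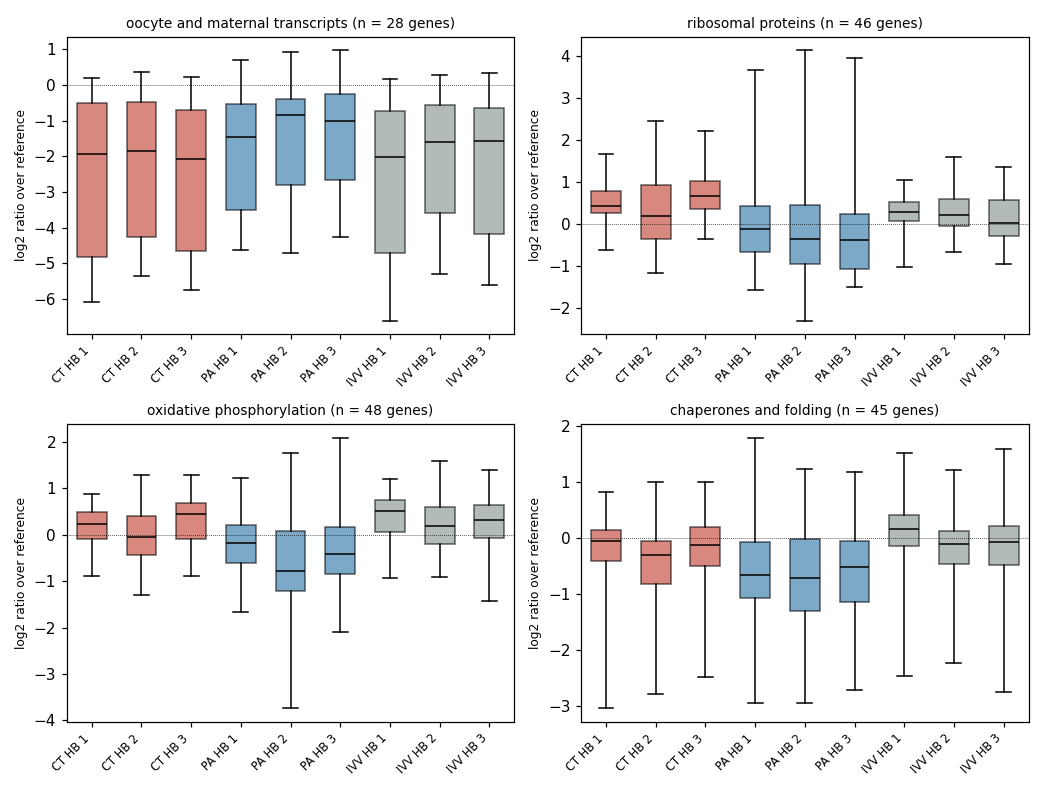
Log2 ratios over the reference on each array of the measured members of 4 lists; boxes span the quartiles with the median, whiskers reach the lowest and highest member. The PA HB medians lie highest for oocyte transcripts (-1.46, -0.85 and -1.02) and lowest for ribosomal proteins (-0.12, -0.36 and -0.38), and the same low order is seen for respiratory chain and folding genes.

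Among genes listed as imprinted, that is read from 1 parental copy, the paternally expressed ones had a median difference of -0.03. Whether each of them is imprinted in pig blastocysts is not given in the sources used here. The paternally expressed genes measured were 9 (*DIRAS3*, *INPP5F*, *L3MBTL1*, *MEST*, *NNAT*, *PLAGL1*, *PON1*, *RTL1* and *SGCE*). Of these, 0 passed, against 7.78% of all genes, and 0 had an adjusted p of at most 0.05, against 14.4%. At those shares so short a list would hold few such genes. The differences lay between -0.35 and 0.25. *MEST*, the member farthest from the reference, had -1.37, -1.37 and -1.7 in CT HB against -3.01, -1.11 and -0.89 in PA HB, and -1.1, -1.76 and -0.92 in IVV HB (0.19, SE 0.45). Only PA HB 1 was low for *MEST*, and the 95% interval of its difference reached from -0.80 to 1.18. The other 8 lay within 0.82 of the reference on every array, and spot intensities were not used here, so whether they were measured above background is unknown.

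Of 10 maternally expressed imprinted genes, 0 rose and 1 fell (10%), against 2.95% and 4.83% of all genes. The fall was *TFPI2*, a serine protease inhibitor of the placenta. *TFPI2* had -3.56, -3.42 and -3.65 in CT HB against -2.45, -1.8 and -1.33 in PA HB, and -4.18, -3.07 and -3.32 in IVV HB (difference -1.68, SE 0.31, adjusted p = 0.0068). *MEG3*, a long noncoding RNA, had -1.04, -0.67 and -0.59 in CT HB against 0.18, 0.19 and 0.02 in PA HB, and -0.39, -0.39 and 0.19 in IVV HB, a difference of -0.90 (SE 0.20) that reached an adjusted p of 0.014 but not 2-fold. *SLC22A18*, an organic cation carrier, had -0.28, 0.49 and 0.02 in CT HB against 0.73, 1.16 and 1.05 in PA HB, and -0.15, 0.59 and 0.57 in IVV HB (-0.90, SE 0.25, adjusted p = 0.035). These 3 of 10 genes had an adjusted p of at most 0.05, against 14.4% of all genes. In each of them every CT HB array lay below every PA HB array, which such a p largely fixes. The arrays of the 2 groups did not overlap in 6 of the 10 genes, against 31.2% of all genes. The other 7 lay between -0.45 (*IGF2R*) and 0.52 (*PPP1R9A*), with *DCN* at 0.50, *GNAS* at 0.23, *KLF14* at 0.01, *UBE3A* at -0.20 and *ATP10A* at -0.27.

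Genes tied to X dosage and to chromatin changed little beyond the profile. *KDM5C* differed by -0.54 (SE 0.16, adjusted p = 0.042), *KDM6A* by 0.77 (SE 0.31, 0.12) and *RLIM* by -0.49 (SE 0.23, 0.18). Of 48 DNA methylation and chromatin genes 1 rose (2.08%, against 2.95% of all genes) and 3 fell (6.25%, against 4.83%). *CBX3*, a heterochromatin protein, had 0.19, 0.14 and 0.29 in CT HB against -0.56, -1.07 and -1.19 in PA HB, and -0.21, -0.17 and -0.03 in IVV HB (1.15, SE 0.19, and 0.95 after scale normalization). The falls were the acetyltransferases *KAT5* (-2.74) and *KAT7* (-2.69) and the maintenance methyltransferase *DNMT1* (-1.32), and all 3 had a profile probe. *KAT5* missed the threshold after quantile normalization (-1.52, adjusted p = 0.051). *DNMT1* had 1 profile probe at -2.45 and 3 others between -1.03 and -0.85, each with an adjusted p of 0.062 or more. Its call was lost after quantile normalization (-0.3, 0.26), with the median of its probes (-0.99), without profile probes (-0.94) and without CT HB 1, CT HB 3 or PA HB 3 (-1.27 to -1.09, adjusted p of at most 0.064).

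Few lineage genes of the blastocyst passed both thresholds, and the lists are short. Of 23 trophectoderm genes, the outer layer that forms the placenta, 0 passed (median -0.02), against 7.78% of all genes. The CT HB and PA HB arrays did not overlap in 12 of the 23, against 31.2% of all genes. After quantile normalization 1 trophectoderm gene rose, and after scale normalization 1 rose and 2 fell. Of 10 epiblast genes 0 passed as deposited (median -0.09), and 1 fell after scale normalization. The keratin *KRT18* had 0.19, 0.53 and 0.8 in CT HB against -0.2, -0.43 and -0.6 in PA HB, and 0.49, 0.67 and 0.98 in IVV HB (0.92, SE 0.21, adjusted p = 0.014, under 2-fold), with probes at 1.16 and 0.67. Its partner *KRT8* did not pass, with 0.7, 1.2 and 1.34 in CT HB against 1.47, 1.91 and 1.69 in PA HB (-0.61, SE 0.26, adjusted p = 0.15). Over the settings other than the fit per probe, the *KRT8* difference ran from -0.74 to 0.32, so its sign was not stable. The junction gene *TJP1* differed by -0.77 (SE 0.21, adjusted p = 0.034), *LIN28A* by -0.89 (SE 0.28, 0.054) and *OTX2* by -0.56 (SE 0.21, 0.11). *GATA2*, a trophoblast transcription factor, stood at -0.42 (SE 0.35, adjusted p = 0.47), and ran from -0.77 to 0.81 over the same settings. Of 14 hypoblast genes 0 rose and 1 fell (7.14%), against 2.95% and 4.83% of all genes. The fall was *GATA6*, which drives the hypoblast, with 0.86, 1.23 and 0.87 in CT HB against 2.19, 2.43 and 2.99 in PA HB, and 0.03, 0.89 and 0.53 in IVV HB (-1.55, SE 0.26, adjusted p = 0.0054). It did not pass after quantile (-0.23, adjusted p = 0.6) or scale normalization (-0.84, 0.067).

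Of 33 listed markers of fibroblasts, a frequent donor cell in nuclear transfer, 11 were measured. Of these 0 were higher in CT HB, against 2.95% of all genes, and *VIM* was lower (-1.01, adjusted p = 0.038). Whether transcripts of the donor cell remained was not tested. *VIM* lost its call after quantile normalization (-0.43, 0.2) and without CT HB 1, CT HB 2, CT HB 3, PA HB 2 or PA HB 3 (-1.15 to -0.79, adjusted p of at most 0.13). Of 11 leukocyte genes 0 rose and 1 fell (9.09%, against 4.83% of all genes). The fall, *CXCR4* (-2.68), has a profile probe and missed the threshold after quantile normalization (-1.42, 0.073). In the Notch pathway 1 of 19 genes passed, against 7.78% of all genes. It was *HEY2*, a transcriptional target of the pathway, with -0.06, 0.01 and -0.2 in CT HB against 1.22, 1.18 and 1.2 in PA HB, and -0.71, 0.45 and -0.22 in IVV HB (-1.29, SE 0.25, adjusted p = 0.0073). The study's text gives *HEY2* as lower in PA HB than in IVV HB on the array, the opposite of the sign of these values. By quantitative PCR the study could not detect *HEY2* in any of the 3 groups. The ligand *JAG1* (-0.21) and the gamma-secretase subunits *PSEN2* (-0.15) and *NCSTN* (0.84, SE 0.49) did not pass, and the *JAG1* probes stood at -0.99, 0.5 and -0.14. *DPP4* (0.61, with probes at 1.19 and 0.02), *LGMN* (0.34) and *KCTD3* (-0.28) did not pass either, although 1 of 3 *KCTD3* probes differed by -1.37 (adjusted p = 0.0043) and the others by 0.31 and 0.23.

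Of 51 cell cycle genes 2 rose (3.92%, against 2.95% of all genes) and 4 fell (7.84%, against 4.83%), with a median of -0.07. The list had 1 rise and 1 fall after quantile normalization, and 0 and 4 after scale normalization. *CENPF*, of the kinetochore, had 0.44, 0.56 and 0.29 in CT HB against 1.78, 2.03 and 1.78 in PA HB, and 0.22, 1.15 and 0.73 in IVV HB (-1.43, SE 0.22), and *CDC20*, an activator of the anaphase-promoting complex, had 0.85, 0.58 and 0.77 in CT HB against 2.08, 2.47 and 1.77 in PA HB (-1.37, SE 0.22). Both were under 2-fold after quantile (-0.8 and -0.41) and scale normalization (-0.94 and -0.76). *TOP2A* (1.07) and *NUF2* (1.10) rose, and each was lost without CT HB 1, CT HB 3, PA HB 2 or PA HB 3 (0.9 to 1.19, adjusted p of at most 0.14). After scale normalization *NUF2* stood at 0.41 (adjusted p = 0.46) and *TOP2A* at 0.83, and *TOP2A* stood at 0.92 after quantile normalization. The falls of *CKS1B* (-1.09) and *RB1* (-1.50, a profile gene) were lost without CT HB 3 (adjusted p = 0.1 and 0.053), and *CKS1B* also without CT HB 1, CT HB 2, PA HB 2 or PA HB 3 (adjusted p of at most 0.096). *RB1* stood at -0.77 (0.14) after quantile and -0.98 (0.071) after scale normalization. Of 33 replication and repair genes 0 rose and 2 fell (6.06%, against 4.83% of all genes), and 5 fell after scale normalization. The 2 as deposited were *PMS2* (-2.52, a profile gene) and *RNASEH2C* (-1.44). *RNASEH2C* stood at -0.01 after quantile and -0.44 after scale normalization and was lost without CT HB 1, CT HB 3 or PA HB 3. Of 24 p53 targets 1 rose and 1 fell (4.17% each, against 2.95% and 4.83% of all genes), and 4 rose after quantile normalization. The rise was *CCNG1* (1.35, SE 0.27) and the fall *RRM2B* (-1.21, SE 0.24). Of 24 apoptosis effectors 0 passed both thresholds, against 7.78% of all genes, with *HTRA2* at 0.84 (adjusted p = 0.02) and *ENDOG* at 0.58 (0.061).

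Of 41 cytoskeletal genes 5 rose (12.2%, against 2.95% of all genes) and 2 fell (4.88%, against 4.83%). *GSN*, which severs actin filaments, had -0.22, -0.35 and 0.3 in CT HB against -1.66, -2.07 and -1.35 in PA HB (1.61, SE 0.26), and *STMN1*, which destabilizes microtubules, had -1.15, -1.92 and -1.77 in CT HB against -0.85, 0.16 and 0.16 in PA HB (-1.43, SE 0.28). *TMSB4X* (1.27) was lost without CT HB 3 (adjusted p = 0.055), and *ARPC3* (1.04) without CT HB 1, CT HB 3 or PA HB 2 (0.86 to 1.00), in centred arrays and after scale normalization (0.97). The second fall, *ACTR2* (-2.73), has a profile probe. The list had 2 rises without CT HB 3 and 3 without PA HB 2. Of 27 junction genes 2 rose (7.41%, against 2.95% of all genes) and 1 fell (3.7%, against 4.83%). *ITGB1* (1.24, and 0.89 after scale normalization) and *PKP2* (1.44) rose, *PKP2* not without CT HB 1, CT HB 3 or PA HB 2. *CGN* fell (-1.17) on its profile probe (-2.71) and not on the other (0.37). *CGN* was lost without CT HB 1 or CT HB 3 and under both scalings.

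Of 30 cytokine and receptor genes 1 rose and 6 fell, 4 of them with a profile probe, so that 1 rose and 2 fell without those probes. The shares were 3.33% and 20%, against 2.95% and 4.83% of all genes. The list had 2 rises and 3 falls after quantile normalization and 0 and 4 without CT HB 3. The chemokine *CXCL16* had 0.68, 1.07 and 0.95 in CT HB against -0.52, -0.12 and -1.73 in PA HB, and -1.33, -0.5 and -1.09 in IVV HB (1.69, SE 0.36), and did not pass without CT HB 3 (1.67, adjusted p = 0.051). CT HB was the group that stood apart for *CXCL16*, since PA HB and IVV HB overlapped. Of 23 interferon genes 1 rose (4.35%, against 2.95% of all genes) and 0 fell. The rise, the thiol reductase *IFI30* (1.17), was lost without CT HB 1, CT HB 3, PA HB 2 or PA HB 3 (0.82 to 1.21, adjusted p of at most 0.12). Of 47 splicing factors 1 rose and 1 fell (2.13% each, against 2.95% and 4.83% of all genes). *SF3B1* rose (1.15, lost without CT HB 1, CT HB 3 or PA HB 2 and after scale normalization). *HNRNPH3* fell (-1.03) on a mean of 5 probes that ranged from -2.38 to -0.06. The *HNRNPH3* call was lost with the median of its probes (-0.11), without profile probes (-0.69), without CT HB 3, PA HB 2 or PA HB 3 (-0.95 to -0.87) and under both scalings. Of 20 amino acid carriers 1 rose (5%, against 2.95% of all genes) and 2 fell (10%, against 4.83%). *SLC38A9* rose (1.10, and 0.95 without PA HB 1 or after quantile and 0.66 after scale normalization). *SLC36A2* and *SLC7A8* (-1.35, a profile gene, and -0.92 after quantile normalization) fell. Of 20 autophagy genes 0 rose and 1 fell (5%, against 4.83% of all genes), *ATG2A* (-1.48, and -0.38 after quantile and -0.8 after scale normalization).

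IVV HB was estimated in the same model. Its mean lay nearer CT HB than PA HB in 170 of the 221 rises and 339 of the 362 falls, 165 of the 184 without a profile probe included, against 4429 of the 6912 genes that did not pass. These genes were chosen by their CT HB to PA HB gap, and PA HB arrays had the widest interquartile ranges. Such a choice favours genes in which PA HB is extreme, so the counts do not measure how alike CT HB and IVV HB are. Falls with a profile probe also share 1 pattern by definition. Among rises IVV HB lay between both cultured groups in 125, above both in 84 and below both in 12. Among falls it lay between them in 298 and below both in 64, and above both in 0. *CACYBP* was of the second kind among rises, at 3.30 below IVV HB in PA HB and 1.09 below it in CT HB, and *PPIC* and *ANXA2* of the last.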

How the data were processed

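Before deposit the authors subtracted the background and corrected every array by itself with a global loess, with no scaling between arrays stated. Deposited values were taken as log2 of embryo (Cy5) over reference (Cy3), with dyes not swapped. Log base and direction are not stated beside the values. They were read from the dyes, and oocyte transcripts lay below 0 as that direction implies. Of 23971 probes, 10344 (43.2%) had a gene symbol, and 198 were renamed through the RefSeq table of Sscrofa11.1. Probes of a gene were averaged to 7495 genes, 1808 with several probes. Spot intensities and the positive-spot rule were not used.

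Means of the 3 groups were estimated over all 9 arrays by limma 3.58.1 (R 4.3.3) (6 residual and 5.47 prior degrees of freedom), after the test of the script on simulated data, and p-values were adjusted by Benjamini-Hochberg over all genes. Figures were drawn in Python 3.11.15. Probes with an SD of at least 0.75 over the arrays and a correlation of at least 0.95 with the mean of their pattern formed the common profile. Named genes were the 12 largest rises and falls, and falls without the profile, whose arrays did not overlap (locus and clone identifiers left out), up to 4 called members per direction of each list with the smallest adjusted p (2 where none was called), every imprinted and X-dosage gene measured, and genes the study examined singly. Among the 12 largest rises 1 gene is not reported here. Members and lists were chosen with earlier results of these data known. Nothing states that pools of 1 group came from separate runs, and the p-values cover no more than the spread among these pools. The other settings were normalizations, probe summaries, filters, variance models, thresholds, the replicate number as a block, and each array left out in turn.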

Additional observations from a re-analysis of the deposited data

How the results depend on the processing

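The 583 genes (221 higher and 362 lower in CT HB) became 371 after quantile normalization, with 146 lower. After scale normalization 136 were higher. A fit per probe gave 925, with 390 higher. At an adjusted p of at most 0.01 there were 335 (109 and 226), with no fold threshold 1081 (515 and 566), and at 3-fold 191 (28 and 163). Without common-profile probes 185 were lower. Leaving out each array in turn gave 326 to 790 genes, 102 to 324 higher and 224 to 466 lower; 326, with 102 and 224, without CT HB 3, and 134 higher without PA HB 2. Centred arrays, the 6 arrays alone, the median of probes, the least variable 25% of genes left out, a robust prior and array weights kept the total within 1.5 times (568 to 703).

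Replicate numbers were shared by both groups. Deviations from the group mean had correlations of -0.07, 0.10 and -0.15 for same-numbered arrays, and of -0.17 to 0.26 for the others. Deviations within 3 arrays are tied to each other, so these values cannot settle whether the numbers pair the pools. With the replicate number as a block 614 genes passed, 238 higher and 376 lower.

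Of the 116 named genes that passed, 3 changed sign: *ATP5E* (0.36) and *CGN* (0.37) without common-profile probes and *ECHDC1* (0.19) after quantile normalization. Of these 116, 49 passed in every setting other than thresholds and the fit per probe. Where a named gene passed neither as deposited nor in the other setting, 22 values over the 23 settings had the opposite sign. With 3 arrays a group and no spot intensities, small changes and genes near background cannot be resolved. The causes of these shifts were not tested.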

Other observations

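Probes without a gene symbol, which entered no gene above, also differed between CT HB and PA HB. In a limma fit of all 23971 probes, 1198 of 13627 unnamed probes (8.79%) passed both thresholds, 383 higher and 815 lower in CT HB, against 923 of 10344 named probes (8.92%), 388 higher and 535 lower.

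Probes of 1 gene did not always move together. Of 112 changed genes with at least 2 probes, 87 had all probes on the same side of 0.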
